A study of Mus musculus with 12 samples.

Results

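The inflammatory cytokines studied here are Il1a, Il1b, Il6, Il15, Il18, Il33, Tnf, Lif, Csf1 and Csf2, 10 of the 55216 genes in the count table. They were chosen by name, with earlier results of these data known, and their counts were read in all 12 RNA-seq libraries of Myc-CaP cells. Myc-CaP is a prostate cancer line of the mouse with high Myc expression. The labels give the strain FVB/NJ and male sex for all groups. Cells of the 6 groups were harvested after 48 h without drug (Ctrl), with IFNγ (interferon γ) at a labelled dose of 200 pg (IFN200) or 2000 pg (IFN2000), with 2 μM oxaliplatin (Oxali, a DNA-crosslinking platinum compound), or with Oxali and IFNγ together at either dose (Combo200 and Combo2000). Each group has 2 libraries from a single line, nothing in the labels says whether they came from separate cultures, and p-values therefore measure only the spread between these libraries, which may be technical. The dose labels name no volume.

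Groups follow the sample titles. In the 6 libraries of single treatments the agent label names another of the single treatments than the title does, without mixing libraries of a pair. A list of 8 p53 targets had a mean log2 ratio to Ctrl of 0.54 to 0.57 in the 6 libraries titled with Oxali and of -0.05 to 0.07 in the 4 titled for IFNγ alone. A list of 8 IFNγ targets, by the same measure, was at 1.03 and 1.04 in IFN200, 3.50 in both IFN2000 libraries and 1.63 and 1.70 in Oxali. The p53 targets did not all rise. With Oxali, 5 of them were higher and 2 lower at an adjusted p under 0.05 (34.8% and 32.8% of all genes). Were the agent labels the correct ones, IFN200, IFN2000 and Oxali would exchange names throughout. Library totals ran from 18749975 to 25931516 counts. A library with 3 or fewer counts of a gene is described as not detecting it, a limit that corresponds to 0.111 to 0.167 CPM (counts relative to the scaled library size) and covers counting error only. Among markers of the line, Myc ran from 2268 to 3835 counts and Krt8 from 353 to 628, whereas Epcam was listed at 0 in all 12 libraries, Krt18 did not exceed 5 counts and Cdh1 did not exceed 6. The 10 myeloid markers summed to 235 to 459 counts, most of them from Cd14 (225 to 409) and Cd68 (10 to 32), and the macrophage markers Adgre1 and Itgam were at 0 in all libraries.

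Reads of other cells were found in 3 libraries. In IFN2000 replicate 2 the 15 T cell markers summed to 628 counts, against 8 to 89 in the other libraries. The cytotoxic granule protease gene Gzmb had 175 counts there, Ifng 117, the IL-2 receptor chain Il2ra 115, the leukocyte gene Ptprc 64 and Cd4 33, whereas Cd8a was at 0. Combo200 replicate 3 had traces of the same genes, with 9 counts of Ifng, 7 of Gzmb and 6 of Il2ra. IFN200 replicate 1 carried heart muscle transcripts, with 63 counts of Actc1, 28 of Myh6 and 22 of Myl2, which were at no more than 4 counts in every other library. The 7 heart muscle markers summed to 175 counts there, to 15 to 26 in the other libraries without Oxali and to 71 to 129 in the 6 with Oxali, where 68 to 125 counts were of Tnnt2, against 47 in IFN200 replicate 1. Results on the cytokines that rest on these libraries, and list counts in IFN2000, are given below with and without them or marked as resting on them.

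Cytokines of this list act by different routes. Il1a, Il1b, Il18 and Il33 encode members of the IL-1 family, several of which are held in the cell as precursors and act only after cleavage or release, and which signal through paired receptor chains. Il6 and Lif encode ligands that share the receptor chain gp130, the product of Il6st, Tnf encodes a ligand cleaved from the cell surface, and Il15 encodes a growth factor of T and NK cells that is presented by its own receptor chain. Csf1 and Csf2 encode factors for the growth and survival of macrophages and other myeloid cells, and Csf1 acts through the receptor encoded by Csf1r, which also binds the product of Il34.

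Sequence just upstream of the start site was available for 9 of the 10 genes from RefSeq promoters on build GRCm38.p6, with no entry for Il15. Of these, 4 are shown: Csf1 and Lif, whose transcripts rose with Oxali, Il33, the most abundant transcript of the group, and Il6, which was not detected and held matches of the same kinds. They cover chr3:107760470-107760719 (Csf1, minus strand), chr11:4257318-4257556 (Lif, plus strand), chr19:29924863-29925112 (Il33, plus strand) and chr5:30012864-30013113 (Il6, plus strand), all upstream of the annotated gene and printed 5′ to 3′ on the gene's strand. Capitals mark matches to the motifs searched.
Csf1: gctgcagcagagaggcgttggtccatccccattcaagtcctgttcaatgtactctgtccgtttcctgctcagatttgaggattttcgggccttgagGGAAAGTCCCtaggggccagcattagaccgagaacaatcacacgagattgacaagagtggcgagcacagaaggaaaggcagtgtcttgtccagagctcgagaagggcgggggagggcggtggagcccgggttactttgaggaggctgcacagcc
Lif: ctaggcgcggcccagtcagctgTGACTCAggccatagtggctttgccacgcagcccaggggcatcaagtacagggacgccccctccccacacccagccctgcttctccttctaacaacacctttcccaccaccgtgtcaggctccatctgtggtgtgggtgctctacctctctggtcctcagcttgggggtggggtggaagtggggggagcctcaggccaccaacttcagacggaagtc
Il33: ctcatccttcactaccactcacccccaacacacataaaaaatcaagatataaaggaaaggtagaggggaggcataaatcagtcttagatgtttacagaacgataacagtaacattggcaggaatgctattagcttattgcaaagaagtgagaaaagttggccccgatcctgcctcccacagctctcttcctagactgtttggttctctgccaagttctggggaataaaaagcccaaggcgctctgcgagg
Il6: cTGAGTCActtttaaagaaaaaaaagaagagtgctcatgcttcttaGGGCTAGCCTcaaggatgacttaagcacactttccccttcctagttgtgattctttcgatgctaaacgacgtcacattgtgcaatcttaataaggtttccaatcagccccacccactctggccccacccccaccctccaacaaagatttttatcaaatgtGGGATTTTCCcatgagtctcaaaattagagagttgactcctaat

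The motifs were AP-1 (TGANTCA), the interferon γ activated site GAS (TTCNNNGAA), the core of the interferon-stimulated response element ISRE (GAAANNGAAA), and the NF-κB and p53 decamer consensus sequences, searched on both strands of the 250 bases before the start. In Csf1 the capitals mark an NF-κB match at positions -154 to -145, counted from the base before the RefSeq start as -1, and no match to the other motifs was found. Lif held an AP-1 match at -228 to -222. The Lif stretch is printed with 239 bases, since it ends at the annotated gene. The RefSeq start, from which its positions are counted, lies further downstream. Il6 held an AP-1 match at -249 to -243, a p53 decamer match at -204 to -195 and an NF-κB match at -44 to -35. Elsewhere, Il1a held an AP-1 match at -12 to -6 and Csf2 a p53 decamer match at -149 to -140, whereas Il1b, Il18, Tnf and both annotated starts of Il33 held none. None of these matches overlapped another. Among all 32851 promoters of the table, an AP-1 match was present in 6.75%, GAS in 7.02%, ISRE in 2.98%, NF-κB in 3.90% and the p53 decamer in 7.13%. These matches describe letters in short windows, which were not tested for binding and were found both in genes that were detected and in genes that were not.

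The 10 cytokines fell into those detected in every library and those detected in few or none. Il33, Csf1 and Lif were detected in every library, and so was Il18, at 7 to 42 counts. These 4 passed the filter on low counts and were tested among 13177 genes. The other 6 did not pass. Il15, Il6 and Il1a exceeded 3 counts in no library, Il1b and Tnf exceeded 3 counts in 2 libraries each, and Csf2 in 1. Per kilobase of exon, the Ctrl level was 44.0 ± 1.71 CPM for Il33 (SD, n = 2), higher than 90.4% of 13043 tested genes with a length, against 3.33 ± 0.108 for Lif, 3.06 ± 0.103 for Csf1 and 0.518 ± 0.107 for Il18. Lif and Csf1 lay close together on this scale, and their order turned when the longest transcript was used as the length (3.59 for Lif and 3.88 for Csf1). In Combo2000 the level per kilobase was 36.1 ± 1.53 CPM for Il33 and 29.5 ± 0.296 for Csf1, with Lif at 5.79 ± 0.275 and Il18 at 1.24 ± 0.378 (SD, n = 2 each).

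**Figure D1:**
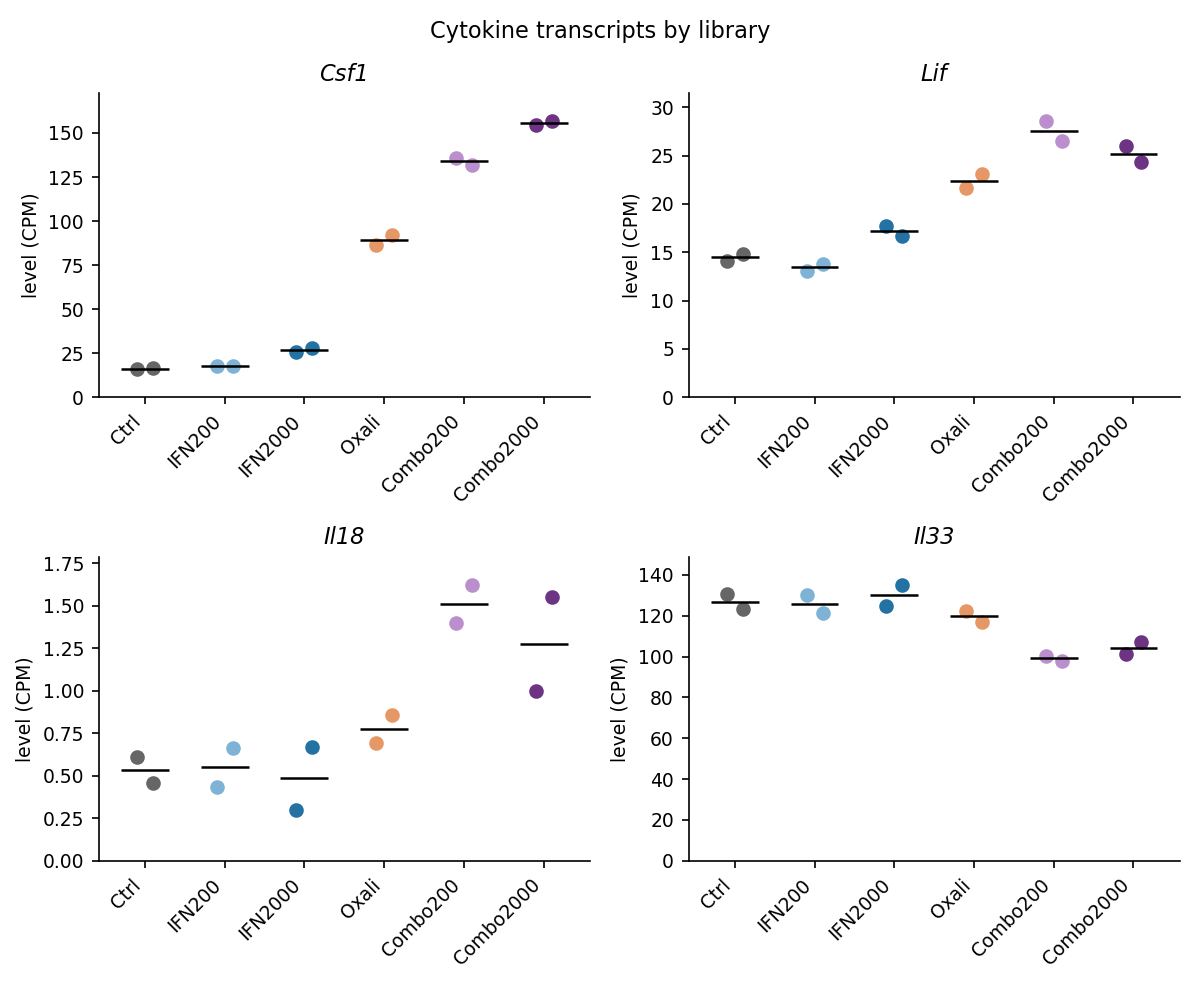
Levels of Csf1, Lif, Il18 and Il33 in CPM (y axes, each from 0) by group (x axes), with 1 point per library and a bar at the mean of the 2 libraries. Csf1 stepped up with Oxali and again with both combinations, Lif and Il18 were highest in the combinations, and Il33 was lowest there.

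Csf1 showed the largest change of the cytokines tested. The gene lies on chromosome 3 (107741048 to 107760469, minus strand, GRCm38). Its transcript had 284 and 327 counts for Ctrl, 408 and 406 for IFN200, 596 and 625 for IFN2000, 1870 and 1933 for Oxali, 3109 and 3417 for Combo200, and 4171 and 3636 for Combo2000. After scaling, the levels were 16.2 ± 0.545 CPM for Ctrl, 17.8 ± 0.163 for IFN200, 26.7 ± 1.68 for IFN2000, 89.2 ± 4.31 for Oxali, 134 ± 2.50 for Combo200 and 156 ± 1.56 for Combo2000 (SD, n = 2 each). In this order of groups no library overlapped with those of the next group. In a bulk library, more cells that make a transcript and more transcript per cell cannot be told apart.

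Oxali alone raised Csf1 5.50-fold over Ctrl (log2 fold change 2.46, SE 0.06, adjusted p 3.57e-17 by edgeR's quasi-likelihood test with Benjamini-Hochberg adjustment). IFN2000 raised it 1.65-fold (0.72, SE 0.07, adjusted p 8.43e-07), and the call held without IFN2000 replicate 2. The step from Ctrl to IFN200 was not called (0.14, 95% interval -0.02 to 0.29, adjusted p 0.829), whereas IFN2000 lay above IFN200 (0.58, adjusted p 5.71e-06). In the combinations Csf1 was 8.26-fold (Combo200) and 9.60-fold (Combo2000) above Ctrl, and above Oxali alone by 0.59 (SE 0.04, adjusted p 1.06e-08) and 0.80 (SE 0.04, adjusted p 2.19e-11) on the log2 scale. Combo2000 exceeded Combo200 by 0.22 (SE 0.04, adjusted p 0.00435), a call that was lost without Combo200 replicate 3 (0.20, adjusted p 0.144) or without Combo2000 replicate 3 (0.21, adjusted p 0.0577).

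Whether IFNγ acted on Csf1 differently with Oxali present was tested as an interaction, the log2 change from Oxali to Combo minus that from Ctrl to IFNγ. At 200 pg the interaction was 0.45 (SE 0.09, adjusted p 0.0140). It rested on single libraries: without Ctrl replicate 1 the adjusted p was 0.0623 (0.47), without Ctrl replicate 2 it was 0.180 (0.41), and without IFN200 replicate 1, the library with heart muscle reads, it was 0.0925 (0.44). At 2000 pg the interaction was 0.08 (95% interval -0.09 to 0.25, adjusted p 0.677). On the linear scale, by contrast, both combination libraries lay above the Ctrl level plus the sum of the single changes at each dose. The sum was 90.8 CPM at 200 pg, where the libraries had 136 and 132, and 99.7 CPM at 2000 pg, where they had 155 and 157; this comparison was not tested.

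Lif, on chromosome 11 (4257557 to 4272514, plus strand), encodes leukemia inhibitory factor. It had 254 and 292 counts for Ctrl, 301 and 313 for IFN200, 414 and 374 for IFN2000, 470 and 485 for Oxali, 655 and 687 for Combo200, and 703 and 565 for Combo2000. The scaled level was 14.5 ± 0.471 CPM for Ctrl, 13.4 ± 0.541 for IFN200, 17.2 ± 0.733 for IFN2000, 22.4 ± 1.06 for Oxali, 27.6 ± 1.43 for Combo200 and 25.2 ± 1.19 for Combo2000 (SD, n = 2 each). All libraries with Oxali lay above all without it, and both combinations lay above Oxali alone. Oxali raised Lif 1.55-fold (0.63, SE 0.08, adjusted p 7.61e-07). The rises in Combo200 and Combo2000 over Ctrl were 1.90-fold (0.93, SE 0.08, adjusted p 1.39e-09) and 1.74-fold (0.80, SE 0.08, adjusted p 1.31e-08).

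The IFNγ step of Lif was small and less stable. IFN2000 exceeded Ctrl by 0.25 (SE 0.08, adjusted p 0.0418), which was not called without IFN2000 replicate 2 (0.21, adjusted p 0.264), without Ctrl replicate 1 (0.219) or without Ctrl replicate 2 (0.102), nor by DESeq2 (0.112). IFN2000 exceeded IFN200 by 0.36 (adjusted p 0.00364), and without IFN200 replicate 1 (0.32, adjusted p 0.0538) or IFN2000 replicate 2 (0.31, adjusted p 0.0554) this call was lost as well. Combo200 lay above Oxali by 0.30 (SE 0.07, adjusted p 0.0212), a call lost when any of the 4 libraries of these groups was left out (adjusted p 0.0501 to 0.257). Combo2000 against Oxali was not called (0.17, 95% interval 0.03 to 0.32 before adjustment, adjusted p 0.214). The interactions, 0.40 at 200 pg (adjusted p 0.116) and -0.08 at 2000 pg (adjusted p 0.787), were not called either.

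Il18 was the least abundant of the cytokines tested. Its product is an IL-1 family cytokine that is cut by caspase-1 and promotes IFNγ production by lymphocytes, and the gene lies on chromosome 9 (50554827 to 50581840, plus strand). The counts were 11 and 9 for Ctrl, 10 and 15 for IFN200, 7 and 15 for IFN2000, 15 and 18 for Oxali, 32 and 42 for Combo200, and 27 and 36 for Combo2000. The groups without Oxali overlapped with each other, the Oxali libraries lay just above Ctrl, and all 4 combination libraries lay above all others. Il18 rose 2.84-fold from Ctrl to Combo200 (1.50, SE 0.37, adjusted p 0.00130) and 2.36-fold to Combo2000 (1.24, SE 0.38, adjusted p 0.00728). The second call was lost without Ctrl replicate 2 (1.03, adjusted p 0.0730) and without Combo2000 replicate 3 (0.91, adjusted p 0.0843).

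For single treatments the counts of Il18 gave wide intervals. Oxali against Ctrl was 0.54 (95% interval -0.37 to 1.45, adjusted p 0.280), and the combinations against Oxali were 0.96 (adjusted p 0.219) and 0.70 (adjusted p 0.347), none of them called. Against IFNγ alone the combinations were higher at 200 pg (1.46, adjusted p 9.86e-04) and at 2000 pg (1.38, adjusted p 0.00249). The latter rested on IFN2000 replicate 2, which had the 7 counts, and was 0.90 (adjusted p 0.0565) without it. The former was 1.06 (adjusted p 0.0546) when the 3 libraries with reads of other tissues were left out together.

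Il33 went the other way. Its product is a nuclear cytokine released from damaged cells, and the gene lies on chromosome 19 (29925114 to 29960718, plus strand). The counts were 2345 and 2437 for Ctrl, 3002 and 2750 for IFN200, 2915 and 3030 for IFN2000, 2658 and 2450 for Oxali, 2301 and 2534 for Combo200, and 2728 and 2489 for Combo2000. Scaled to library size, these were 127 ± 4.93 CPM for Ctrl, 126 ± 6.22 for IFN200, 130 ± 7.36 for IFN2000, 120 ± 3.92 for Oxali, 99.2 ± 1.72 for Combo200 and 104 ± 4.40 for Combo2000 (SD, n = 2 each). The 4 combination libraries, from 97.9 to 107 CPM, lay below the 8 others, from 117 to 135 CPM.

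Il33 was not called with either single treatment, with log2 fold changes of -0.08 for Oxali (95% interval -0.19 to 0.02, adjusted p 0.146), -0.01 for IFN200 (-0.12 to 0.09, adjusted p 0.984) and 0.03 for IFN2000 (-0.07 to 0.14, adjusted p 0.703). It fell to 0.781 of the Ctrl level in Combo200 (-0.36, SE 0.05, adjusted p 3.65e-06) and to 0.820 for Combo2000 (-0.29, SE 0.05, adjusted p 4.85e-05). Both calls held under every alternative tried, with log2 fold changes of -0.40 to -0.32 and of -0.33 to -0.24. Against Oxali alone the combinations were lower by -0.27 (adjusted p 0.00353) and -0.20 (adjusted p 0.0238). These calls were lost without Oxali replicate 1 (adjusted p 0.0626 and 0.208), that at 200 pg also without Combo200 replicate 3 (0.0924), and that at 2000 pg also without Combo2000 replicate 2 (0.228). The interactions were -0.26 at 200 pg (adjusted p 0.124) and -0.24 at 2000 pg (adjusted p 0.0837), neither of them called. Each was called under 4 of 21 alternatives, at 200 pg without a filter, with only the groups compared or without either IFN2000 library (adjusted p 0.0183 to 0.0357), and at 2000 pg with upper-quartile scaling, without a filter, without IFN2000 replicate 2 or without the 3 libraries with reads of other tissues (0.0277 to 0.0421).

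**Figure D2:**
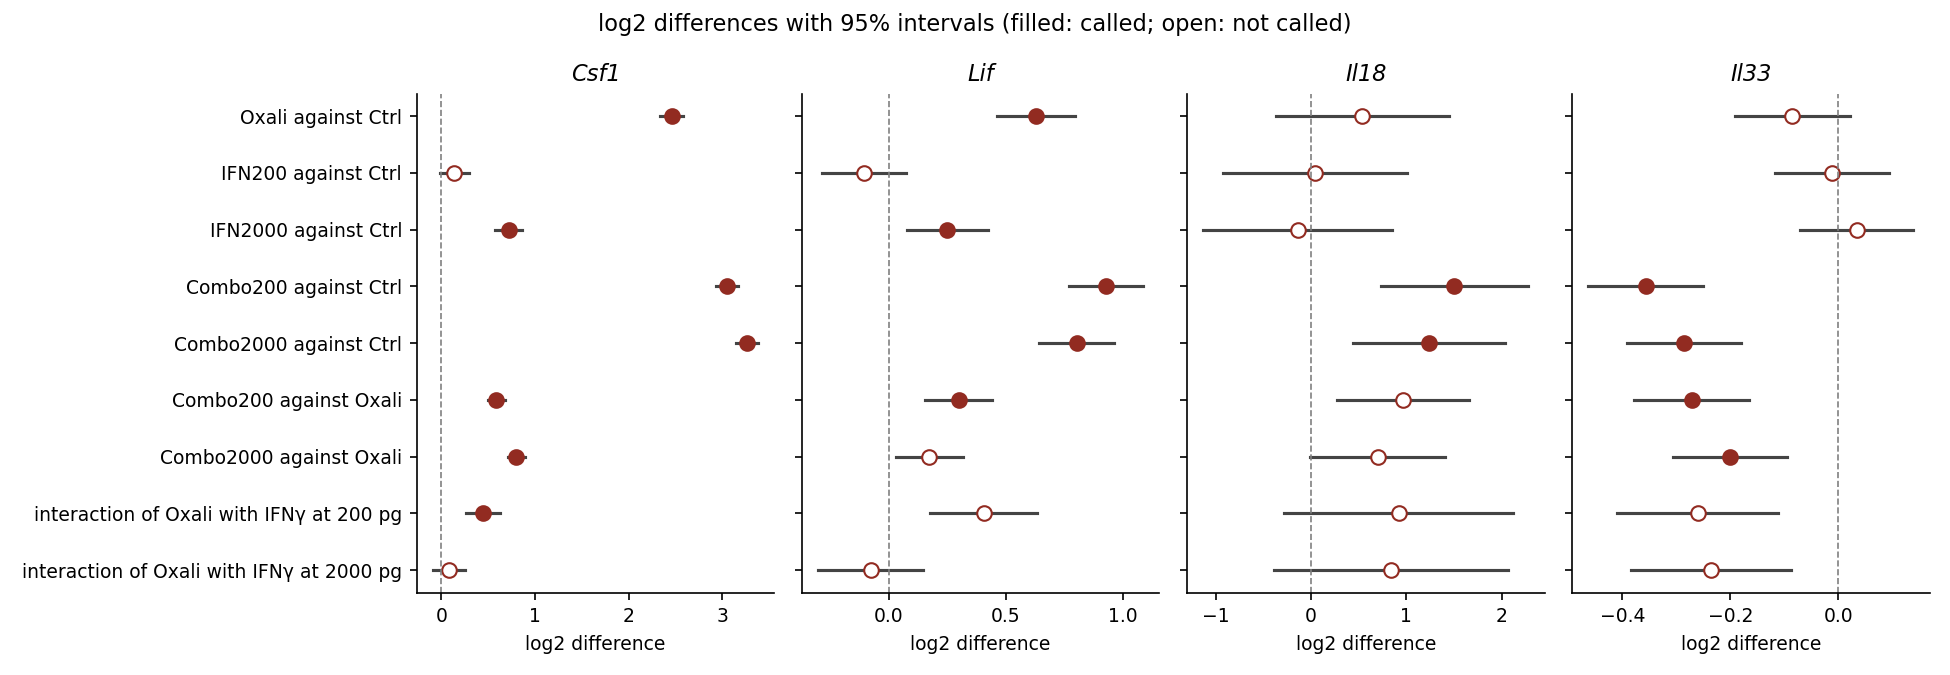
log2 differences (x axes, a separate range for each gene) with 95% intervals before adjustment for the comparisons on the y axis. Filled points were called at an adjusted p under 0.05 and open points were not. Csf1 was called in all comparisons but IFN200 against Ctrl and the interaction at 2000 pg, and Il33 lay below 0 in the combinations, at -0.36 and -0.29.

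Set against all genes tested, the number of cytokines called has to be read beside a broad response to Oxali. In Oxali against Ctrl, 2 of the 4 tested were called, both higher, where 34.8% of all genes were called higher and 32.8% lower. In Combo200 3 were higher and 1 lower against Ctrl (35.6% and 33.1% of all genes), as they were in Combo2000 (35.7% and 33.5%). The same 3 were higher and Il33 lower against IFNγ alone at 200 pg (36.5% higher and 33.5% lower) and at 2000 pg (38.5% and 33.8%). With 4 genes tested and most of all genes called, these counts are no result about the cytokines as a group. IFN200 against Ctrl called none of the 4, where 0.114% of all genes were called higher and 0% lower, and IFN2000 called 2 higher (8.39% and 8.47%).

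Fewer genes responded to IFNγ added to Oxali. Combo200 differed from Oxali in 3 of the 4 cytokines, Csf1 and Lif higher and Il33 lower, against 1.58% of all genes higher and 0.25% lower. Combo2000 differed from Oxali in 2, Csf1 higher and Il33 lower (3.37% and 0.987%). IFN2000 differed from IFN200 in 2, both higher (11.3% and 11%), and Combo2000 from Combo200 in 1, higher (1.21% and 0.167%). The interaction called 1 at 200 pg, higher, where 0.562% of all genes were called higher and 0.137% lower, and 0 at 2000 pg (2.12% and 0.6%). With upper-quartile scaling the split of all genes changed from 74 higher and 18 lower to 57 and 24 at 200 pg, and from 280 and 79 to 216 and 150 at 2000 pg. The median log2 fold change of the 4 cytokines was 0.58 for Oxali, 0.02 for IFN200, 0.14 for IFN2000, 1.22 for Combo200 and 1.02 for Combo2000, against medians over all genes of 0.02 for Oxali, Combo200 and Combo2000. Comparisons with Ctrl share the control libraries and are not independent of each other.

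The cytokines that passed no filter were near or at 0 with every treatment, apart from Tnf in 1 library. Il15 (chromosome 8, 82331632 to 82403222) had 0 counts in all 12 libraries. Il6 (chromosome 5, 30013114 to 30019981) had 1 count in IFN2000 replicate 2, 1 in Combo200 replicate 3 and 0 in the other 10 libraries. Il1a (chromosome 2, 129299610 to 129309972) had 3 counts in IFN2000 replicate 2, 2 in each of Oxali replicate 2 and Combo2000 replicate 2, 1 in each of Ctrl replicate 2 and IFN200 replicate 2, and 0 elsewhere. For these 3 genes a level up to the limit of 3 counts was not detectable at this depth.

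Il1b (chromosome 2, 129364570 to 129371139) was detected only outside the libraries with T cell reads. It had 1 and 1 counts for Ctrl, 0 and 1 for IFN200, 1 and 0 for IFN2000, 1 and 7 for Oxali, 0 and 3 for Combo200, and 1 and 4 for Combo2000. Only Oxali replicate 2 and Combo2000 replicate 3 exceeded 3 counts, and in each case the partner library had 1. No fold is given for Il1b, since the Ctrl libraries lay below the limit and the treated libraries straddled it. Il1a, Il1b and Csf2 overlap annotated exons on the opposite strand, and use of the strand in counting was not given in the sources used here.

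Tnf and Csf2 were found where T cell transcripts were found. Tnf (chromosome 17, 35199381 to 35202007) had 146 counts in IFN2000 replicate 2, 5 in Combo200 replicate 3, 1 in Combo2000 replicate 2 and 0 in the other 9 libraries, including IFN2000 replicate 3. Csf2 (chromosome 11, 54247271 to 54249667) had 7 counts in IFN2000 replicate 2, 1 in Oxali replicate 1, 1 in Combo200 replicate 3 and 0 elsewhere. Of the 15 T cell markers 12 exceeded 3 counts in IFN2000 replicate 2 and 5 in Combo200 replicate 3, against 1 or 2 in the other libraries, where Lck and Trac were the markers most often read. Without IFN2000 replicate 2 the IFN2000 group had 0 counts of Tnf and of Csf2. In the same library, and at no more than 1 count in any other, were Il21 with 26 counts, Il13 with 12 and Osm with 7, genes that activated T cells are known to express and that were picked out after their values were seen. The part of T cell RNA in the Tnf and Csf2 counts was not tested beyond these values.

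**Figure D3:**
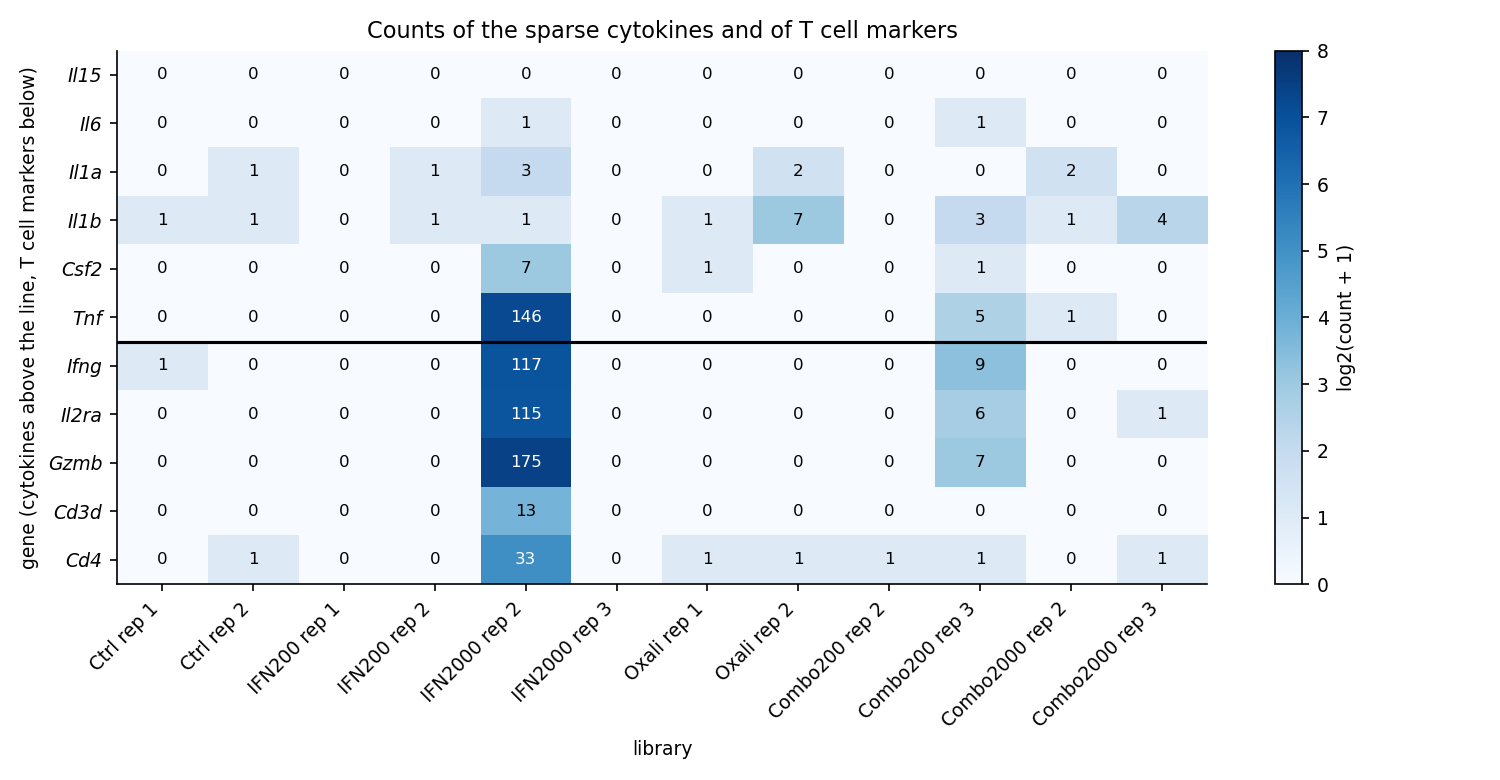
Counts (numbers in the cells, shading as log2(count + 1)) of the 6 sparse cytokines above the line and of 5 T cell markers below it, by library (x axis). IFN2000 replicate 2 held 146 counts of Tnf together with 117 of Ifng, 115 of Il2ra and 175 of Gzmb, and its partner replicate 3 held 0 of each.

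Receptors and antagonists of these cytokines were read from a list of 20 genes, of which 14 were tested. With Oxali 10 were higher and 3 lower, with IFN2000 3 were higher and 1 lower, and with Combo2000 11 were higher and 2 lower. With IFN200 none was called. Among all genes the shares called higher and lower were 34.8% and 32.8% with Oxali, 8.39% and 8.47% with IFN2000, and 35.7% and 33.5% with Combo2000. Without IFN2000 replicate 2 the counts for IFN2000 were 2 higher and 1 lower, Il2rb no longer being called. The median log2 fold change of the 14 was 0.96 for Oxali and 1.46 for Combo2000. Il1r2, Il2rb, Il18rap and Csf1r were low without Oxali, apart from Il1r2 and Il2rb in IFN2000 replicate 2. They passed the filter through libraries with Oxali, where they were high. Conversely, Il2rg was low with Oxali and passed the filter through libraries without it. The part of all these genes in the counts and medians was thus partly set by the filter and is no support for a rise or fall of the list. Il1rl1, which encodes the IL-33 receptor chain ST2, had 168 and 172 counts for Ctrl, 251 and 207 for IFN200, 188 and 212 for IFN2000, 793 and 781 for Oxali, 872 and 1072 for Combo200, and 905 and 902 for Combo2000. It thus stood high in every library with Oxali and low in every library without, a rise of 2.03 on the log2 scale in Oxali (SE 0.10, adjusted p 8.72e-13), and neither combination was called against Oxali (0.11 and -0.03). Its partner chain Il1rap rose by 0.96 (SE 0.08). The receptor chain of Il33 therefore rose in Oxali, where Il33 itself was not called.

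The IL-18 system showed another pattern. Il18rap, a chain of the IL-18 receptor, had 6 and 6 counts for Ctrl and 48 and 30 for Oxali (2.50, SE 0.37, adjusted p 6.90e-06), whereas its partner Il18r1 did not pass the filter, with 0 to 12 counts. Il18rap passed the filter through the libraries with Oxali, so this p-value is no independent support for its rise. Il18bp encodes a secreted protein that binds and neutralizes IL-18. It had 25 and 40 counts for Ctrl, 50 and 56 for IFN200, 80 and 78 for IFN2000, 27 and 14 for Oxali, 85 and 112 for Combo200, and 299 and 267 for Combo2000. Its level was therefore lowest in Oxali (-0.84 against Ctrl, SE 0.29, adjusted p 0.0161) and highest in Combo2000 (2.71, SE 0.17, adjusted p 3.47e-11). In Combo2000 the transcript of the antagonist, at 11.3 ± 0.306 CPM, or 3.73 ± 0.101 per kilobase, stood beside 1.24 ± 0.378 CPM per kilobase for Il18 (SD, n = 2 each).

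**Figure D4:**
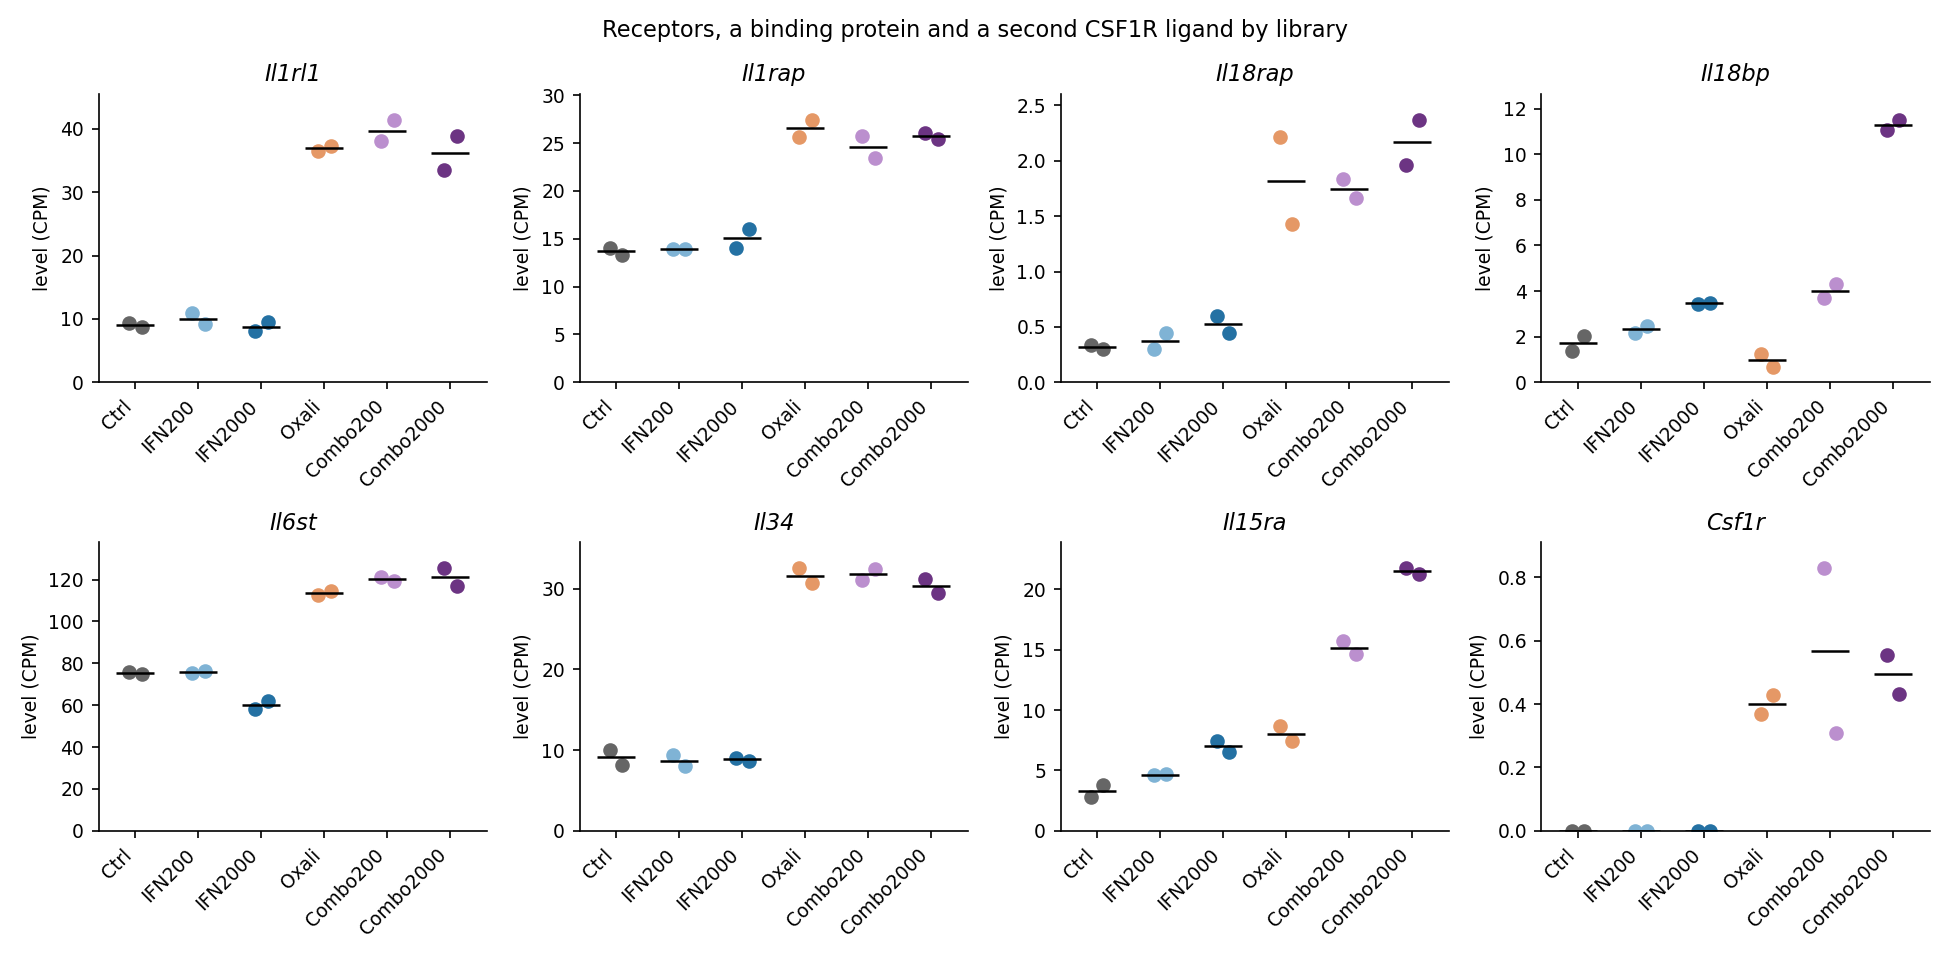
Levels in CPM (y axes, each from 0) of Il1rl1, Il1rap, Il18rap, Il18bp, Il6st, Il34, Il15ra and Csf1r by group (x axes), with 1 point per library and a bar at the mean of 2. Il1rl1 and Il34 were high in all libraries with Oxali, Il15ra and Il18bp were highest in Combo2000, and Csf1r had 0 counts in every library without Oxali.

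For Lif, the LIF receptor chain Lifr was listed at 0 in all 12 libraries, while the chain Il6st rose by 0.59 (SE 0.05, adjusted p 6.61e-10) in Oxali and was lower in IFN2000 (-0.33, SE 0.05, adjusted p 1.33e-04, and -0.28 without replicate 2). Il15ra, the chain that presents IL-15, had 50 and 75 counts for Ctrl, 173 and 147 for IFN2000, 188 and 156 for Oxali and 587 and 494 for Combo2000, and so rose in all 3 groups (2.11-fold, 2.43-fold and 6.49-fold), although Il15 had no counts. Without IFN2000 replicate 2 the rise of Il15ra in IFN2000 was 1.98-fold (adjusted p 0.00137). Csf1r had 0 counts in all 6 libraries without Oxali, 8 and 9 for Oxali, 19 and 8 for Combo200 and 15 and 10 for Combo2000. Against a limit of 3 counts per Ctrl library these are at least 2.50-fold, 3.57-fold and 3.09-fold higher. Beside them, the macrophage genes Adgre1 and Itgam stayed at 0, Lyz2 went from 0 to 1 counts without Oxali to 3 to 11 with it, and Cd14, at 13.3 ± 1.15 CPM for Ctrl and 15.1 ± 0.640 for Oxali (SD, n = 2 each), was called higher in Combo200 (0.28, adjusted p 0.0136) and not in Oxali (0.17, adjusted p 0.135). Cd68 was not called in any comparison with Ctrl. Of the 10 myeloid markers 3 were tested, among them Csf1r, which passed the filter through libraries with Oxali, where it was high. Called higher were 1 in Oxali, 2 in Combo200 and 1 in Combo2000, where 34.8%, 35.6% and 35.7% of all genes were called higher. These counts are thus partly set by the filter and are no result about the markers. The relation of the other markers to Csf1r was not tested.

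The TNF receptor genes, named after their values were seen, were abundant although Tnf had 0 counts in both Ctrl and both Oxali libraries. Tnfrsf1a had 2194 and 2412 counts for Ctrl and 1879 and 1773 for Oxali (-0.51, SE 0.04, adjusted p 1.16e-09), and Tnfrsf1b had 1487 and 1483 for Ctrl and 2707 and 2537 for Oxali (0.64, SE 0.05, adjusted p 2.88e-10). Other receptor genes were low. Il1r2, a decoy receptor for IL-1, had 1 and 1 counts for Ctrl and 16 and 14 for Oxali, at least 4.41-fold higher. Il2rb, a signaling chain for IL-15 and IL-2, had 1 and 2 counts for Ctrl, 29 and 28 for Oxali and 95 and 51 for Combo2000, by group mean at least 8.38-fold and 17.9-fold higher. In IFN2000 it had 51 counts in replicate 2, the library with T cell reads, and 6 in replicate 3. Il2rg, another receptor chain of the list, went the other way near the floor. It had 10 and 10 counts for Ctrl, 4 and 2 for Oxali and 4 and 2 for Combo2000. Il2rg passed the filter through libraries without Oxali, so a test of it is no independent support for its fall. Csf2rb was at 0 in all libraries.

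Genes that process or release these cytokines were read from a list of 19, of which 18 were in the table and 11 were tested. With Oxali 5 were higher and 1 lower (34.8% and 32.8% of all genes), and with Combo2000 6 were higher and 2 lower (35.7% and 33.5%). With IFN2000 2 were higher and 1 lower (8.39% and 8.47%), namely Casp8, Gsdmd and Adam10. These IFN2000 calls were lost without IFN2000 replicate 2, the library with T cell reads, which leaves a single library in the group. For each gene both IFN2000 libraries lay on the same side of both Ctrl libraries. Casp8 was at 47.1 and 48.0 CPM against 39.0 and 41.8 for Ctrl, and Gsdmd at 2.81 and 3.60 against 1.22 and 1.93. Adam10 was at 339 and 369 CPM against 384 and 399. The part of T cell RNA in these values was not tested. Casp1, whose product cuts the IL-1β and IL-18 precursors, had 0 to 7 counts and was not tested. Gsdmd, which encodes a pore protein through which IL-1 family cytokines can leave the cell, had 22 and 38 counts for Ctrl, 79 and 91 for Oxali and 201 and 168 for Combo2000, and rose by 1.32 (SE 0.22, adjusted p 2.63e-05) and 2.20 (SE 0.19, adjusted p 3.69e-09). Casp4, an inflammatory caspase that cuts the product of Gsdmd, had 0 counts in both Ctrl libraries and 20 and 12 in Combo2000, at least 3.95-fold higher. It passed the filter through Combo2000, where it was high.

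Regulators of mRNA decay, which act on the unstable messages of many cytokines, were all detected. Of 11, 3 were higher and 6 lower with Oxali (34.8% and 32.8% of all genes), 0 higher and 2 lower with IFN2000 (8.39% and 8.47%), and 3 higher and 6 lower with Combo2000 (35.7% and 33.5%), with median log2 fold changes of -0.16, -0.03 and -0.21. Without IFN2000 replicate 2 neither of the 2, Khsrp and Rc3h1, was called in IFN2000. Arid5a, whose product stabilizes Il6 mRNA, had 82 and 64 counts for Ctrl, 262 and 201 for Oxali and 344 and 264 for Combo2000, and rose by 1.48 (SE 0.15, adjusted p 5.57e-08) and 1.64 (SE 0.15, adjusted p 6.49e-09). Il6 itself had 0 counts in these 6 libraries.

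Of 34 other cytokines, 19 did not exceed 3 counts in any library, among them 10 at 0 throughout, and 7 were tested. With Oxali 4 were higher and 0 lower (34.8% and 32.8% of all genes), with IFN2000 none was called (8.39% and 8.47%), with or without replicate 2, and with Combo2000 3 were higher and 0 lower (35.7% and 33.5%). Il34, which encodes the second ligand of CSF1R, had 179 and 162 counts for Ctrl, 706 and 643 for Oxali and 843 and 684 for Combo2000. Both ligands of the receptor thus rose with Oxali, Il34 by 1.80 (SE 0.09, adjusted p 9.81e-13), and Il34, unlike Csf1, was not called in either combination against Oxali (0.01 and -0.06). Csf3, which encodes granulocyte colony-stimulating factor, had 1 and 4 counts for Ctrl, 21 and 29 for Oxali and 23 and 21 for Combo2000 (3.09, SE 0.56, adjusted p 6.68e-05, and 2.68, SE 0.58, adjusted p 4.37e-04). For Csf3 every library without Oxali lay below every library with it, and the gene passed the filter through the latter. These p-values are therefore no independent support for its rise. Il4, with 9 and 6 counts for Ctrl and 15 and 22 for Oxali, was called in Oxali (1.11, adjusted p 0.0256) and not in Combo2000 (0.88, adjusted p 0.0730).

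Genes whose log2 CPM followed the cytokines most closely over the 12 libraries were sought among all 13177 tested, as a description. For Csf1 they were Bid (Pearson r 0.998) and Slc20a1 (0.996), for Lif Dtnbp1 (0.987) and Gadd45b (0.986), for Il18 Rsl1 (0.931) and Pafah2 (0.917), and for Il33 Gm37422 (0.939) and 2810408A11Rik (0.937). The 12 points fall into libraries with and without Oxali, so that much of each value comes from this split.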

How the data were processed

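RNA from 12 libraries of Myc-CaP cells in 6 groups of 2 was measured by poly(A) RNA-seq with a stranded kit. The file deposited by the authors holds whole-number read counts per gene and library without normalization. The study's methods name STAR, GRCm38 with GENCODE genes and featureCounts, while the submitters' processing notes name STAR 2.7.3a and RSEM 1.3.0. Use of the strand in counting was not given in the sources used here.

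Differences were tested in R 4.3.3 with edgeR 4.0.16 (TMM scaling, quasi-likelihood F test), after filterByExpr (minimum count 10, minimum total 15), which kept 13177 genes. A single model of all 12 libraries held the 6 group means and nothing else. Genes were called in each of 13 contrasts at a Benjamini-Hochberg adjusted p under 0.05 over all genes tested. The test was also run on simulated counts with known changes. The smallest two-sided p that an exact permutation of 2 against 2 libraries allows is 0.333, so calls depend on the variance pooled over genes and groups. CPM are TMM-scaled. Lengths and positions came from a later GENCODE release on GRCm38, and promoters from RefSeq. Folds against a group at or under 3 counts in every library used the mean of the treated group and 3 counts per library as the floor. They are bounds on means of the observed counts, not on single libraries.

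The cytokines and the lists were chosen with earlier results of these data known. Named from each list were called members with an absolute log2 fold change of at least 1 in Oxali, IFN2000 or Combo2000, up to 6 by size in Combo2000, and the receptors and antagonists of the cytokines tested. Alternatives were other scalings, DESeq2 1.42.0, other filters, only the groups compared, a replicate block, a length and GC correction and each library left out. Leaving out together the 3 libraries with reads of other tissues, and recounting the lists without them, was chosen after seeing the data. All 12 count columns were used. Replicate libraries were not copies of each other (chi-square per degree of freedom 1.71 to 9.15). Some markers of the line are not reported here.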

Additional observations from a re-analysis of the deposited data

Results flagged for a closer look

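The interaction of Csf1 at 200 pg was 0.45 on the log2 scale (SE 0.09, adjusted p 0.0140 by edgeR's quasi-likelihood test): the difference between Combo200 and Oxali (0.59) was larger than that between IFN200 and Ctrl (0.14), a difference between effects that was itself tested. At 2000 pg the same 2 differences were 0.80 and 0.72, and the interaction was 0.08 (adjusted p 0.677). Whether the interactions at the 2 doses differ from each other was not tested.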

How the results depend on the processing

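For the 4 cytokines tested, 52 log2 fold changes were recomputed to give 1079 values. Of these, 1020 kept their direction and side of the threshold, 37 lost the call, 8 gained one and 14, all uncalled, changed sign. Il18 gave no value under the filter on a mean of at least 50 counts. The fit with the replicate number as a block is a check only, since numbers did not pair the libraries (correlation of deviations -0.05 to 0.02, over 2 shared numbers or fewer for a pair of groups).

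Counts of cytokines called in Oxali, IFN200, Combo200 and Combo2000 against Ctrl and in the combinations against IFNγ alone stayed within 1.5 times. In IFN2000 against Ctrl the count went from 2 to 1 with DESeq2, only the groups compared, the replicate block and the 3 libraries left out, and to 1 to 2 with each library left out. Without a filter it stayed at 2, but Lif was lost (adjusted p 0.0684) and Tnf was called (adjusted p 5.61e-31), whose counts in that group all came from IFN2000 replicate 2. Combo200 against Oxali went from 3 to 1 to 3 and Combo2000 against Oxali from 2 to 1 to 2 with each library left out, and the latter to 1 under the block. IFN2000 against IFN200 went from 2 to 1 and Combo2000 against Combo200 from 1 to 0 without the 3 libraries, with ranges of 1 to 2 and 0 to 1 when each was left out. The interaction at 200 pg went from 1 to 2 without a filter and with only the groups compared, to 0 under the block, where that of Csf1 was 0.40 (adjusted p 0.0821), and to 0 without the 3 libraries (0 to 2 with each left out). That at 2000 pg went from 0 to 1 with upper-quartile scaling, without a filter and without the 3 libraries (0 to 1 with each left out). The gained interaction calls were those of Il33. The causes were not tested. Under the replicate block the calls of Lif in IFN2000 against Ctrl (0.26, adjusted p 0.0680) and in Combo200 against Oxali (0.31, 0.0628), of Il18 in Combo2000 against Ctrl (0.87, 0.0779) and of Il33 in Combo2000 against Oxali (-0.19, 0.0838) were also lost.

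Counts over all genes, which set the shares given beside the cytokines, moved by more than 1.5 times under some alternatives. With the range over all alternatives in parentheses they were 15 (4 to 102) in IFN200 against Ctrl, 2221 (712 to 2897) in IFN2000 against Ctrl, 2943 (367 to 3399) in IFN2000 against IFN200, 241 (128 to 372) in Combo200 against Oxali, 574 (331 to 732) in Combo2000 against Oxali, 181 (118 to 269) in Combo2000 against Combo200, and 92 (34 to 262) and 359 (131 to 1029) for the interactions at 200 and 2000 pg. Without IFN2000 replicate 2 the counts were 851 in IFN2000 against Ctrl, 1190 against IFN200 and 202 for the interaction at 2000 pg, which was 1029 without IFN2000 replicate 3 and 131 without Ctrl replicate 1. The 712, the 367 and the 34 came from leaving out the 3 libraries with reads of other tissues.

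Sign changes with a library left out concerned Il18 and Il33. Il18 ranged from -0.29 to 0.32 in IFN200 against Ctrl, -0.79 to 0.34 in IFN2000 against Ctrl, -0.84 to 0.29 in IFN2000 against IFN200 and -0.60 to 0.0348 in Combo2000 against Combo200. Il33 ranged from -0.0630 to 0.0378, -0.00612 to 0.0944 and -0.00313 to 0.104 in the first 3 of these. Without the 3 libraries Il18 was 0.34 in IFN2000 against Ctrl and 0.0189 against IFN200. Il18 and the sparse cytokines were read near the floor, where depth and not the test sets what can be seen, and a floor of 1 count in place of 3 would raise the lower bounds, for example from 2.50 to 7.51 for Csf1r in Oxali.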
